A study of Drosophila melanogaster with 3 samples.

Results

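The mitochondrial ribosomal protein genes of Drosophila melanogaster were taken as the protein-coding genes of the Ensembl BDGP6.54 annotation whose symbol is mRpL or mRpS followed by a digit. They numbered 73 of 13945 protein-coding genes on the 6 chromosome arms, 47 named for the large subunit and 26 for the small subunit. Binding of the nuclear receptor Hr3 at their promoters was measured by chromatin immunoprecipitation and sequencing (ChIP-seq) in 3 biological replicates of whole embryos aged 0 to 24 h, with males and females pooled. All replicates came from 1 transgenic line that stably carried Hr3 (also named Hr46) with GFP at its C-terminus, and an anti-GFP antibody was used. There was 1 group and no second condition, so the binding is described and no groups are compared. Because whole embryos of all stages up to 24 h were pooled, sites bound in few cells and sites bound weakly in many cells cannot be told apart, and peak lists hold no expression markers by which the tissue could be checked.

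Mitochondrial ribosomes translate the few messenger RNAs of the mitochondrial genome, which encode core subunits of the oxidative phosphorylation complexes. Their RNAs are transcribed in the organelle, but all of their proteins are encoded in the nucleus, made in the cytosol and imported, so the nuclear promoters of many scattered genes have to supply 1 assembled particle. Some of the proteins descend from those of bacterial ribosomes, and others were added in the mitochondrial lineage. Hr3 is a nuclear receptor of the ecdysone cascade and the fly counterpart of the mammalian ROR receptors, which bind a short element that ends in the receptor core AGGTCA or a close variant of it (the ROR response element, RORE).

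A gene is called bound here when the summit of a peak in the authors' reproducible list lay within 500 bp of any of its transcription start sites. The word stands for the presence of a peak alone: without the control library, which was not analysed here, signal that does not depend on Hr3-GFP could not be set apart. Promoter sequences of 7 bound genes are given to show the bases on which the summits lay, from the RefSeq genome on dm6, 5′ to 3′ on the strand of the mitochondrial ribosomal protein gene. The first 3 are bound genes whose summit had within 100 bp the DNA replication-related element (DRE, TATCGATA), a common core promoter sequence of fly housekeeping genes. Their capitals mark the DRE, and each sequence starts 60 bp before the summit. They are mRpS18B at chr2L:20097250-20097373 on the minus strand, mRpL10 at chr2L:203638-203779 on the plus strand and mRpL19 at chr3R:8673949-8674096 on the plus strand.
mRpS18B: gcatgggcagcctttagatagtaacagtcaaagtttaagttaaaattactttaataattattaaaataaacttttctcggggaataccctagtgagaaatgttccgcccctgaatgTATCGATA
mRpL10: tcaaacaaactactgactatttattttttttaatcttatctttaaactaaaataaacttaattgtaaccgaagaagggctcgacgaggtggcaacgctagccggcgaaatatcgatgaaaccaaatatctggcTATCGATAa
mRpL19: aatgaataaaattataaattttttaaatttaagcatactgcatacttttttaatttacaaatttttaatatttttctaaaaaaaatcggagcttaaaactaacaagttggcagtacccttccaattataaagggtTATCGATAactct
The other sequences belong to strongly bound genes without a DRE there, and their single capital marks the summit base. They are mRpS10 at chr3R:15229408-15229665 on the plus strand, mRpS23 at chr2L:13835396-13835516 on the minus strand, mRpS2 at chr2L:4850419-4850641 on the minus strand and mRpL24 at chr2L:4945361-4945579 on the minus strand. Those of mRpS10, mRpS2 and mRpL24 run from the start site of the divergent neighbour (Art3, Mon1 and betaggt-I) to the start site of the gene itself, so each is a whole shared promoter.
mRpS10: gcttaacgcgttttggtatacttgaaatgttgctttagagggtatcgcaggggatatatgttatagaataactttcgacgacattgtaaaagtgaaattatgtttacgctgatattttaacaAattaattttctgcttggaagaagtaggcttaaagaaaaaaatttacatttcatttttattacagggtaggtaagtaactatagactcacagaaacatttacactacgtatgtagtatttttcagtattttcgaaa
mRpS23: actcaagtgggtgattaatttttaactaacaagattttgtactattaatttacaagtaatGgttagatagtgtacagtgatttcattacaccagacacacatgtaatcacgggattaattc
mRpS2: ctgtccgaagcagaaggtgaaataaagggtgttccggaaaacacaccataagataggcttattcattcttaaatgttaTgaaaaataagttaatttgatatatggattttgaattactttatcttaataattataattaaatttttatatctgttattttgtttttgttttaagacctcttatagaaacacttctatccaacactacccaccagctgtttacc
mRpL24: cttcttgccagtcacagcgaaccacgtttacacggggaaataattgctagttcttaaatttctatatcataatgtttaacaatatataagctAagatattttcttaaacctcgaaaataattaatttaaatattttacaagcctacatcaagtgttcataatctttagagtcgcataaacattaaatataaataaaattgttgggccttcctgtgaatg
In the printed sequences with a DRE it lay on the gene side of the summit, centred 60, 76 and 78 bp from it for mRpS18B, mRpL10 and mRpL19. The 51 bases centred on the summit had a GC content between 11.8% (mRpL19) and 31.4% (mRpL10).

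Hr3 peaks lay at the promoters of 38 of the 73 genes (52.1%), where 23.9% of all protein-coding genes were bound. The bound genes are mRpL3, mRpL4, mRpL10, mRpL11, mRpL17, mRpL18, mRpL19, mRpL20, mRpL21, mRpL23, mRpL24, mRpL27, mRpL34, mRpL35, mRpL37, mRpL41, mRpL42, mRpL44, mRpL47, mRpL51, mRpL52, mRpL53 and mRpL54 of the large subunit. Those of the small subunit are mRpS2, mRpS6, mRpS7, mRpS10, mRpS11, mRpS16, mRpS18B, mRpS21, mRpS22, mRpS23, mRpS24, mRpS25, mRpS26, mRpS29 and mRpS31. The share over all genes was lower when each summit was given to the nearest start site alone, and that of the mitochondrial ribosomal protein genes fell close to it: 15 of 73 genes (20.5%) were then bound, beside 17.4% of all protein-coding genes. Most of the bound genes therefore count as bound through a summit that lay nearer to the start of another gene. For comparison, the genes of cytoplasmic ribosomal proteins, which build the ribosomes of the cytosol, were bound in 61 of 92 cases (66.3%) and in 53 of 92 (57.6%) by the nearest start site. Subunit genes of oxidative phosphorylation were bound in 20 of 84 cases (23.8%) and in 13 (15.5%) by the nearest start site.

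**Figure D1:**
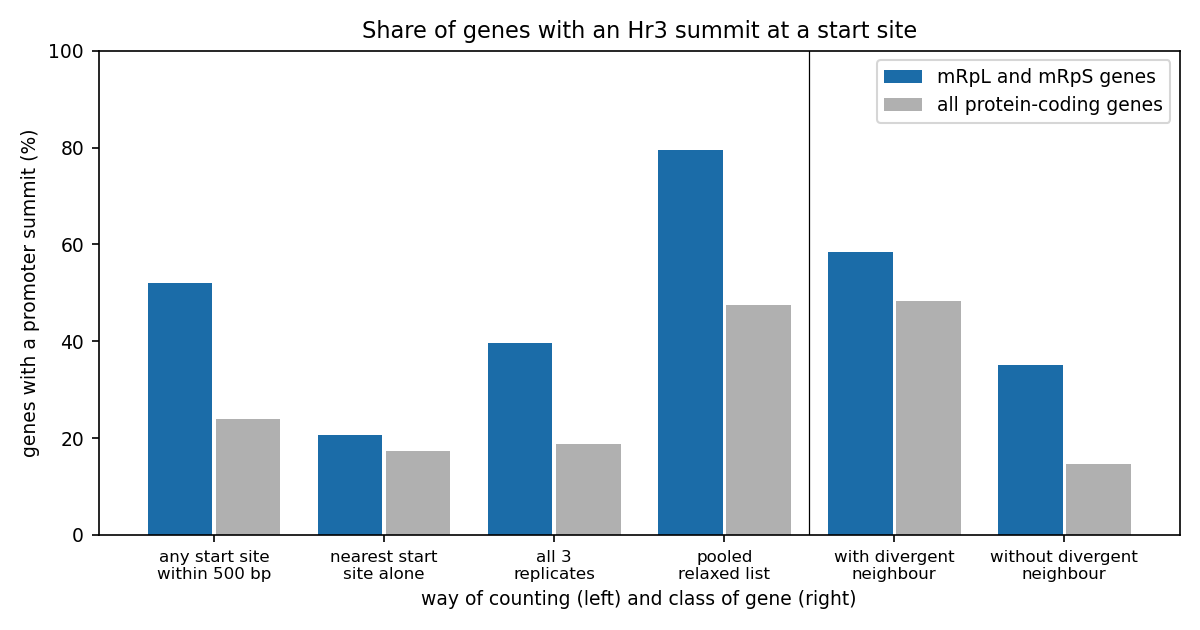
Bars give the percentage of the 73 mRpL and mRpS genes (blue) and of all 13945 protein-coding genes (grey) with an Hr3 summit within 500 bp of a start site, under 4 ways of counting and, right of the line, separately for genes with and without a divergent neighbour. The blue and grey bars lie far apart for any start site (52.1% and 23.9%) and close together when a summit counts for the nearest start site alone (20.5% and 17.4%).

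The 3 replicates gave similar counts. Among the 5357 strongest peaks of each replicate, as many as the reproducible list holds, summits lay at 37, 39 and 34 of the 73 promoters in replicates 1, 2 and 3. This is 50.2% ± 3.45 (SD, n = 3) of the genes, beside 23.8%, 23.8% and 22.8% of all protein-coding genes. Of the 38 bound genes, 29 had a summit among the strongest peaks of all 3 replicates, 5 in 2 replicates and 4 in 1. Over all protein-coding genes 18.8% had a reproducible summit that was among the strongest peaks of all 3 replicates, and 39.7% of the mitochondrial ribosomal protein genes did. The 4 genes supported by 1 replicate at this depth of the lists were mRpL3, mRpL19, mRpL54 and mRpS25.

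Both subunits and both evolutionary groups held bound genes, with a summit counted for every start within 500 bp. The shares below stand beside 23.9% of all protein-coding genes. By nearest start site, not split by group, the shares were 20.5% of the 73 genes and 17.4% of all. Of the large subunit genes 23 of 47 (48.9%) were bound, and of the small subunit genes 15 of 26 (57.7%). Of the genes whose proteins have a bacterial counterpart 24 of 44 (54.5%) were bound, and of those known from mitochondria alone 14 of 29 (48.3%). The first group includes mRpL3 and mRpL4, which contact the core of the large ribosomal RNA, mRpL10 and mRpL11 of the stalk region where elongation factors bind, mRpL23 and mRpL24 at the exit of the peptide tunnel, and mRpS7 and mRpS10 of the head of the small subunit. The second includes mRpL44, which carries a ribonuclease III fold, and mRpS29, the counterpart of the human GTP-binding protein DAP3. The subunit in a symbol is not always the place of the protein: in human mitochondrial ribosomes the counterparts of mRpS18A and mRpS30, both unbound here, sit in the large subunit. The 3 paralogs mRpS18A, mRpS18B and mRpS18C, related to bacterial S18, differed in that mRpS18B alone was bound.

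The counts differed between the arms. On the X chromosome 2 of 11 genes were bound (18.2%), mRpL3 and mRpS25, both among the weakest peaks, where 21.7% of all X-linked genes were bound. On the autosomes 36 of 62 genes were bound (58.1%), where 24.3% of all autosomal genes were. The counts were 9 of 12 on 2L (75%), 9 of 12 on 2R (75%), 7 of 17 on 3L (41.2%) and 11 of 21 on 3R (52.4%). Of all genes on 2L, 2R, 3L and 3R, 24.4%, 22.4%, 24% and 26.2% were bound. None of the mitochondrial ribosomal protein genes lies on arm 4. A summit counted here for every start within 500 bp. By this rule the X-linked genes were near the background of their chromosome and the autosomal ones above theirs. Counts on the X are small, and no difference was tested. Given to the nearest start site alone, summits lay at 20.5% of the 73 genes and 17.4% of all genes, not split by arm.

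The strength of a peak was followed in each replicate as the authors' signal value of the relaxed peak covering the summit, divided by the replicate's median at all reproducible peaks, so that 1 is a typical reproducible peak. The 38 promoter peaks had medians of 1.38, 1.10 and 1.02 in replicates 1, 2 and 3, or 1.17 ± 0.189 (SD, n = 3). The promoter peaks of all bound protein-coding genes had medians of 1.16, 1.19 and 1.15, or 1.17 ± 0.0169 (SD, n = 3). The typical peak at a mitochondrial ribosomal protein gene was thus as strong as that at any bound gene within the spread of the replicates. In replicate 1 the mitochondrial ribosomal protein genes had the higher median of the pair, and in replicates 2 and 3 the lower. Means of single peaks ran from 0.524 to 10.99.

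A few of the peaks were far above the rest. Of the 38 genes, 4 (10.5%) had a peak among the 100 strongest of the reproducible list, where 3.24% of all bound genes did, and 9 (23.7%) had one among the 500 strongest, where 15% of all bound genes did.

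The strongest was that of mRpS10, which encodes a protein of the small subunit head (chr3R:15229314-15229763). Its relative signal was 10.7, 11.3 and 11.0 in replicates 1, 2 and 3, a mean of 10.99 ± 0.309 (SD, n = 3), and it ranked 8 of 5357 reproducible peaks. mRpL41, a large subunit protein without a bacterial counterpart, had 10.5, 9.01 and 10.3, a mean of 9.95 ± 0.823 (SD, n = 3) and rank 13 (chr2R:15217558-15217953). These ranges lay side by side without overlap, with the lowest value of mRpS10 just above the highest of mRpL41. mRpS23, a small subunit protein, had 7.80, 8.04 and 9.04, a mean of 8.29 ± 0.655 (SD, n = 3) and rank 19 (chr2L:13835251-13835646). mRpL23, at the tunnel exit, had 7.02, 6.59 and 7.17, a mean of 6.93 ± 0.300 (SD, n = 3) and rank 40 (chr3L:2373417-2373809). The lowest replicate of each of these 4 peaks was above the highest replicate of every other peak at these genes.

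A second step held mRpS2, mRpL24, mRpS6, mRpL20 and mRpL53, whose ranges overlapped each other. mRpS2, whose bacterial counterpart sits near the path of the messenger RNA, had 3.09, 3.82 and 3.97 (3.63 ± 0.472 SD, n = 3). mRpL24 had 3.70, 3.67 and 3.35 (3.57 ± 0.194 SD, n = 3), and mRpS6, of the small subunit platform, had 4.17, 3.25 and 2.92 (3.45 ± 0.647 SD, n = 3). mRpL20 had 2.78, 3.68 and 3.02 (3.16 ± 0.466 SD, n = 3). The last of the group was mRpL53 with 3.57, 2.52 and 2.89 (3.00 ± 0.534 SD, n = 3), so that 9 genes in all had a relative signal above 2 in every replicate.

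The next were mRpL37, mRpL11 and mRpS7, still above 1 in every replicate. mRpL37, a protein of mitochondrial ribosomes alone, had 1.86, 1.91 and 2.19 (1.99 ± 0.175 SD, n = 3). mRpL11 had 1.88, 1.57 and 1.69 (1.71 ± 0.157 SD, n = 3), and mRpS7 had 1.90, 1.73 and 1.34 (1.66 ± 0.286 SD, n = 3). For mRpL11 the reproducible list holds a further, weaker summit in the promoter, under the same replicate peaks, and mRpS21 has such a second summit too.

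At the other end 14 genes were below 1 in every replicate. The lowest were mRpL42, a protein added in mitochondria, with 0.307, 0.605 and 0.660 (0.524 ± 0.190 SD, n = 3), and mRpS25 with 0.353, 0.748 and 0.547 (0.549 ± 0.198 SD, n = 3). mRpL54 had 0.483, 0.709 and 0.504 (0.565 ± 0.125 SD, n = 3). mRpL3, a core protein of the large subunit, had 0.586, 0.588 and 0.567 (0.580 ± 0.0115 SD, n = 3). These ranges overlapped, so no order holds among them, and the tight values of mRpL3 stand beside the loose ones of mRpL42. Of the 38 peaks, 18 were highest in replicate 1, 10 in replicate 2 and 10 in replicate 3.

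**Figure D2:**
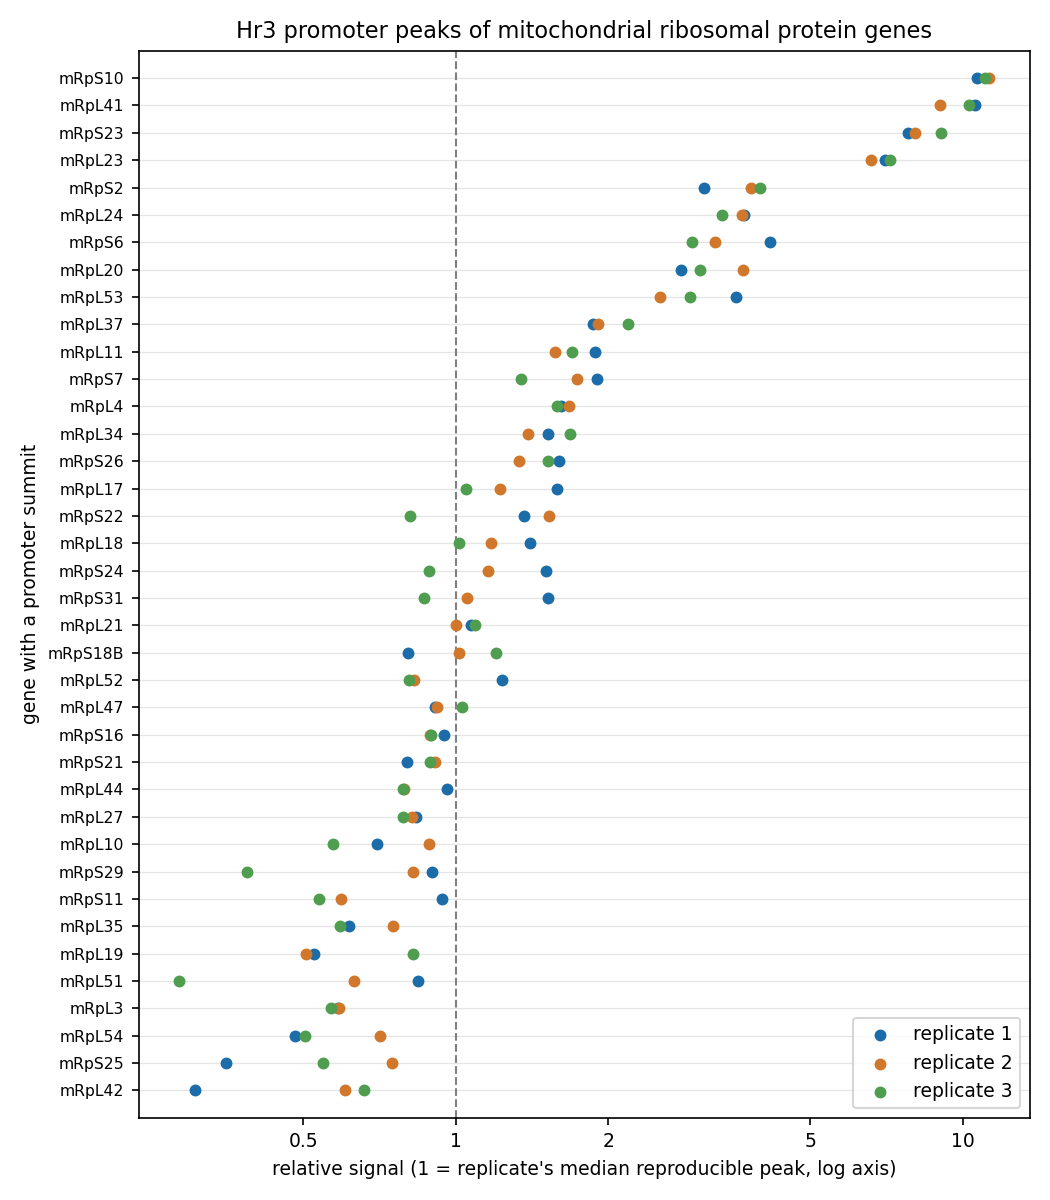
Each row is 1 of the 38 bound genes, ordered by mean, and the points are the 3 replicates, with relative signal on a log axis and the dashed line at 1, the replicate's median reproducible peak. mRpS10, mRpL41, mRpS23 and mRpL23 stand apart at means of 6.93 to 10.99, and 5 genes follow at 3.00 to 3.63.

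A divergent neighbour, a protein-coding gene on the other strand whose start lies 0 to 500 bp upstream, was annotated for 53 of the 73 genes (72.6%), beside 27.4% of all protein-coding genes, 39.1% of the cytoplasmic ribosomal protein genes and 46.4% of the oxidative phosphorylation genes. With a limit of 250 bp 25 of the 73 genes (34.2%) had such a neighbour, beside 14.2% of all protein-coding genes, so how common a shared promoter is among these genes depends on the limit. Within 500 bp the gaps between the start sites ran from 20 to 499 bp with a median of 264 bp. None of the neighbours of the bound genes was itself a mitochondrial ribosomal protein gene. Across the genome 48.3% of all genes with a divergent neighbour were bound, and 14.7% of those without one. The counting rule enters this contrast, since a summit at either start of such a pair can count for each gene. With the strongest summit nearest to the gene's own start, the counts were 961 of 3815 genes with a neighbour and 1338 of 10130 without. Among the mitochondrial ribosomal protein genes 31 of 53 with a neighbour (58.5%) and 7 of 20 without one (35%) were bound. With the strongest summit nearest to their own start the counts were 9 of 53 and 5 of 20, which are small and were not tested. A background weighted to the same share of shared promoters came to 39.1%, in place of 23.9%, beside the 52.1% of these genes. The weighting was made only under the rule that counts a summit for every start within 500 bp. By nearest start site, without weighting, the shares were 20.5% of these genes and 17.4% of all. The number of start sites goes the other way from the weighting. Of the 67 genes with a single annotated start site 34 were bound (50.7%), beside 18.8% of all such genes.

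The share bound varied with the gap. For gaps up to 150 bp 10 of 20 genes were bound (50%, beside 37.2% of all genes with such a gap), for 151 to 300 bp 10 of 13 (76.9%, beside 51.9%), and for 301 to 500 bp 11 of 20 (55%, beside 55.4%). Peaks of genes with a neighbour had a median relative signal of 1.24 ± 0.238 (SD, n = 3 replicates), and those of the 7 without one 0.698 ± 0.126 (SD, n = 3). These SDs are over replicate medians, not over peaks. Means of single peaks ran from 0.524 to 10.99 with a neighbour and from 0.549 to 9.95 without one. The difference was not tested. Among the 7 without a neighbour, 2 peaks had a mean above 1. That of mRpL4 had 1.61, 1.67 and 1.58 (1.62 ± 0.0450 SD, n = 3), and that of mRpL41 ranks just below that of mRpS10.

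At the 31 bound shared promoters the summit lay between the starts in 23 cases (74.2%, beside 72.3% over all bound genes with a neighbour), beyond the neighbour's start in 5 and inside the mitochondrial ribosomal protein gene in 3. It was closer to the neighbour in 22 and closer to the mitochondrial ribosomal protein gene in 9 (29%). Over all bound genes with a divergent neighbour 52.1% had the summit closer to their own start, and so did 82.1% of such cytoplasmic ribosomal protein genes (23 of 28) and 58.8% of such oxidative phosphorylation genes. The share with the summit on their own side was thus lower at mitochondrial ribosomal protein genes than in the compared lists, with no test made. These counts take each summit position at face value, also where it lay near the middle of the gap.

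The strongest shared peak, that of mRpS10 and the arginine methyltransferase gene Art3, lay near the middle of a gap of 257 bp, 135 bp from the start of mRpS10 and 122 bp from that of Art3. The summits of mRpL24 and betaggt-I (a protein prenylation enzyme subunit; 126 and 92 bp), mRpL53 and AGO1 (the Argonaute of microRNA silencing; 91 and 79 bp) and mRpS26 and CG13698 (224 and 206 bp) were also nearly central, as was that of mRpL54 and CG15653 (140 and 102 bp). In each of these 5 pairs the summit was slightly nearer to the partner.

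Clearly nearer to the partner were the summits of mRpS23 and CenG1A (384 and 108 bp), mRpS2 and the endosomal trafficking gene Mon1 (144 and 78 bp), mRpL20 and the methyltransferase gene Icmt (270 and 129 bp) and mRpL17 and Tudor-SN (282 and 117 bp). The same held for mRpL21 and rept, a chromatin helicase gene (200 and 79 bp), mRpL44 and the SWI/SNF subunit gene Snr1 (257 and 33 bp), mRpL34 and the dystroglycan gene Dg (228 and 156 bp) and mRpS24 and Apc2 (257 and 164 bp). At short gaps the summit lay almost on the partner's start for mRpL27 and CG15435 (85 and 6 bp), mRpL47 and CG8176 (86 and 13 bp) and mRpS16 and the zinc finger gene cg (78 and 19 bp).

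Beyond the partner's start lay the summits of mRpL11 with HtrA2 (a mitochondrial protease; 107 bp past its start), mRpL18 with Taz (the cardiolipin remodelling enzyme tafazzin; 126 bp), mRpL35 with Mitofilin (a cristae organising protein; 7 bp), mRpL51 with Uba4 (64 bp) and mRpL52 with CG12107 (3 bp). In these 5 the summit fell in the 5′ UTR of the partner, and in HtrA2, Taz and Mitofilin the partner itself encodes a mitochondrial protein.

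On the side of the mitochondrial ribosomal protein gene lay the summits of mRpS7 and Cdk1, the mitotic kinase (177 and 223 bp), mRpS6 and Cip4 (133 and 315 bp), mRpS18B and Kua (60 and 268 bp), mRpS21 and the chaperone gene Droj2 (97 and 200 bp), mRpS22 and CG5003 (133 and 259 bp) and mRpS31 and hzg (104 and 353 bp). In the last 3 pairs of this class the summit lay past the start of the mitochondrial ribosomal protein gene, in its own 5′ UTR: mRpS11 with Ns1 (7 bp), mRpL42 with PIG-N (14 bp) and mRpL23 with CG9004, where it was 56 bp past the closest of 3 annotated mRpL23 starts. Of the 9 genes on this side, 7 encode small subunit proteins by name. Among all 38 bound genes 15 do, but 7 of the 38 have no divergent neighbour and could not fall in this class. These counts are small and were not tested.

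**Figure D3:**
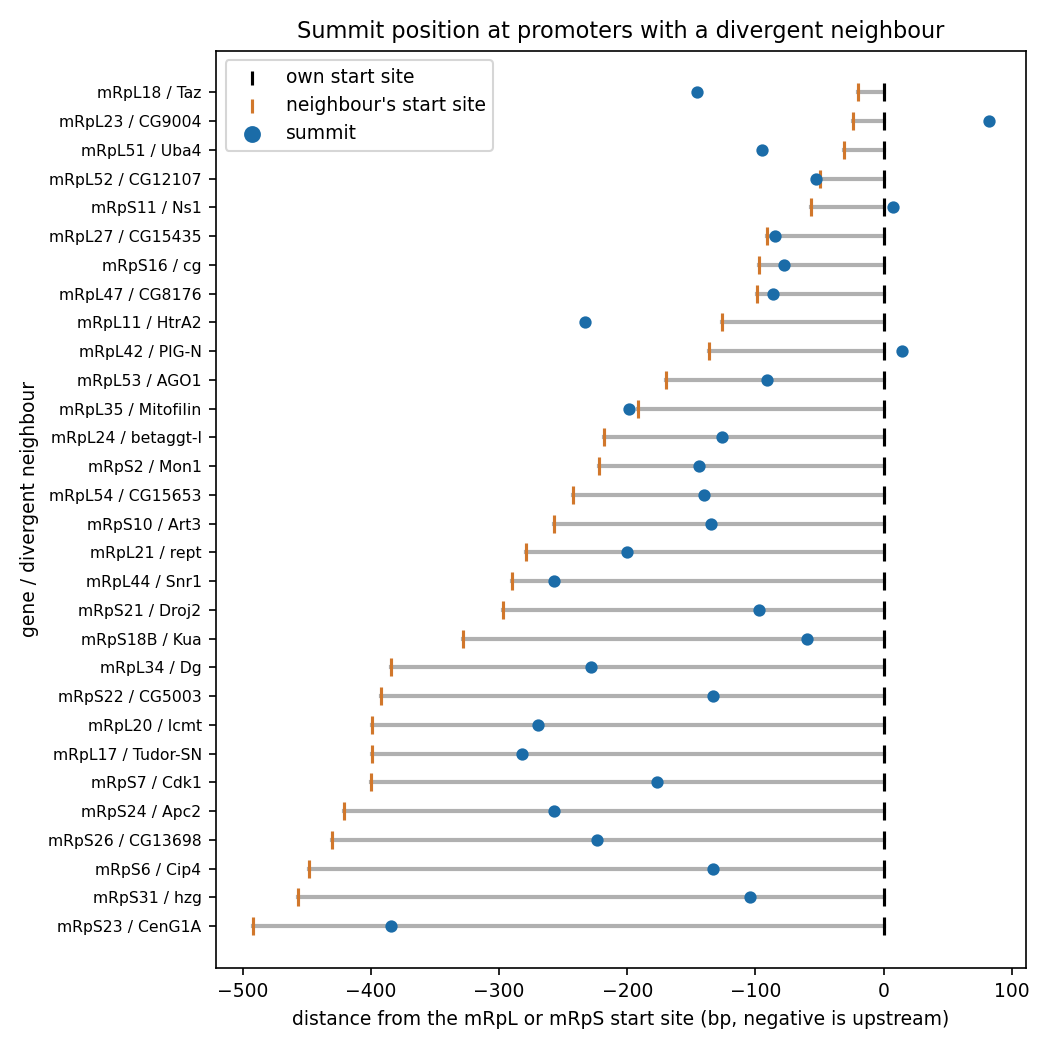
Each row is 1 of 30 of the 31 bound genes with a divergent neighbour, ordered by gap, drawn from the gene's own start (black tick at 0) to the neighbour's start (orange tick), with the summit as a blue point and distance in bp. In 22 of these rows the point lies between the ticks, and in 21 it is closer to the orange tick.

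Of the 7 bound genes without a divergent neighbour, mRpL10, mRpL19 and mRpL4 had no start of any other gene within 500 bp of the summit. The summit of mRpL3 had the start of Graf within that distance, mRpS25 that of nmdyn-D6, mRpS29 that of the DNA repair gene rad50, and mRpL41 that of lncRNA:CR44463. For mRpS25 and mRpS29 the other start was the nearer. Over all 38 bound genes 35 (92.1%) had the start of another gene within 500 bp of the summit, beside 63.9% of all bound genes. The share was 95% (19 of 20) for the bound oxidative phosphorylation genes and 95.1% for all bound genes with a divergent neighbour. The strongest summit of the promoter was nearest to the mitochondrial ribosomal protein gene itself in 14 cases (36.8%), beside 69% of all bound genes. For the bound cytoplasmic ribosomal protein genes this share was 83.6%, and for the oxidative phosphorylation genes 60%. By its weaker summit mRpL11 joins these 14 in the count of 15 by nearest start site.

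Measured from the gene's own start, summits lay upstream in 35 of 38 cases (92.1%, beside 90.7% of all bound genes). The median distance was 137.5 bp upstream, beside 146 bp over all bound genes and 73 bp for the cytoplasmic ribosomal protein genes. The median was 143, 138 and 146 bp upstream among the strongest peaks of replicates 1, 2 and 3. Summits of 23 genes lay within 150 bp of the start, 12 from 151 to 300 bp and 3 beyond, those of mRpS25, mRpS23 and mRpS29. In position along the promoter these genes were thus close to bound genes in general. Of the summits 29 were intergenic, 8 in a 5′ UTR and 1 in an intron, that of mRpL53 in AGO1. The limit of 500 bp cut through no cluster of values: the widest distance inside it was 465 bp for mRpS25, and the closest summits outside were 1422 bp away for mRpS18A, 1433 bp for mRpL55 and 1435 bp for mRpL13. The farthest was 1386749 bp away, for mRpS5 on 3L.

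The other 35 genes had no reproducible summit at a promoter. A relaxed peak called on the pooled replicates had its summit there in 20 of them, so that 58 of the 73 genes (79.5%) had a pooled relaxed summit, beside 47.5% of all protein-coding genes. In single replicates 11 of the 35 had a relaxed summit in all 3, 8 in 2, 9 in 1 and 7 in none. Those with none were mRpL14, mRpL30, mRpL45, mRpS14, mRpS18C, mRpS34 and mRpS35. mRpL45 is the protein that, in human mitochondria, holds the ribosome to the inner membrane, and mRpS14 belongs to the small subunit head.

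Some of these genes came close to the bound ones. mRpL2, a protein of the peptidyl transferase region, had the strongest pooled relaxed peak, with a signal of 103.9 and rank 5460, and mRpL50 had 102.3 and rank 5551, where the weakest reproducible peak had 105.4. mRpL13 had relative signals of 0.632, 0.387 and 0.596 in replicates 1, 2 and 3 (0.538 ± 0.132 SD, n = 3) and was among the strongest peaks of 2 replicates. mRpL2 had 0.676, 0.308 and 0.574 (0.519 ± 0.190 SD, n = 3), and mRpS30 had 0.470, 0.471 and 0.618 (0.519 ± 0.0852 SD, n = 3). Values of unbound genes are those of relaxed peaks with a summit at the promoter, since no reproducible summit lay there. These means overlapped with those of the weakest bound genes, mRpL42 to mRpL3, so the division into bound and unbound is not a gap in strength.

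The other genes with a relaxed summit in all 3 replicates were mRpL50, mRpL1, mRpL32, mRpS17, mRpL9, mRpL28, mRpL39 and mRpL55, with means from 0.506 down to 0.344. Those with 2 were mRpL12, mRpL15, mRpL16, mRpL36, mRpL43, mRpL48, mRpS5 and mRpS33. Those with 1 were mRpL22, mRpL33, mRpL38, mRpL40, mRpL46, mRpL49, mRpS9, mRpS18A and mRpS28. mRpL43 had the highest single value of any unbound gene, 0.822 in replicate 1, with 0.376 in replicate 2 and no summit in replicate 3 or the pooled list. Of the 9 unbound X-linked genes, mRpS30 alone had a relaxed summit in every replicate.

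Of the unbound genes 22 have a divergent neighbour, among them mRpL55 with ATPsynD, an ATP synthase subunit (gap 95 bp), mRpL39 with the proteasome gene Prosbeta2 (285 bp), mRpL2 with FoxK (64 bp) and mRpS17 with the pseudouridine synthase gene Nop60B (436 bp). A shared promoter was thus present at 22 of the 35 unbound genes and at 31 of the 38 bound ones, with median gaps of 272.5 bp and 257 bp. Over all protein-coding genes it was present at 1973 of 10613 unbound and 1842 of 3332 bound ones. There the median gaps were 209 bp and 264 bp.

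**Figure D4:**
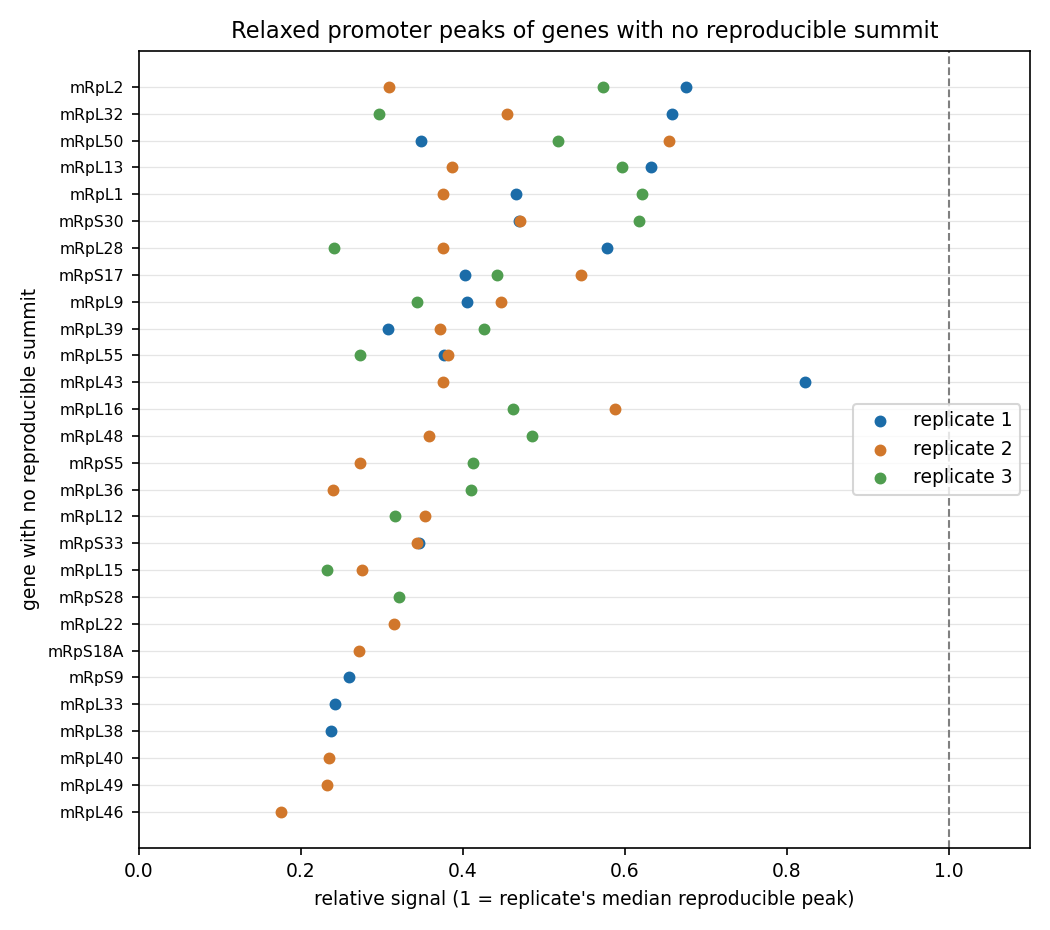
Each row is 1 of the 28 genes without a reproducible summit that had a relaxed promoter summit in at least 1 replicate, and points give the relative signal in each replicate where there was one, with the dashed line at 1. All points lie below 1, from 0.175 for mRpL46 to 0.822 for mRpL43.

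Known sequence elements were rare under the summits, on either strand within 100 bp. The DRE was found at 3 of 38 promoter peaks (7.89%), those printed above, beside 7.64% of all 2617 promoter peaks and 23% of the peaks at cytoplasmic ribosomal protein genes. The other core promoter elements of fly housekeeping genes were as scarce: Motif 1 was at 0 peaks (2.33% of all promoter peaks), Ohler 6 at 1, that of mRpL41 (1.07%), and Ohler 7 (CATCNCTA) at 1, that of mRpL34 (7.30%). The E-box CACGTG, bound by factors such as Myc and Max, was at 3 peaks (7.89%, beside 1.99%), those of mRpL23, mRpL27 and mRpS11. Of the 4 strongest peaks, mRpL23 had an E-box, mRpL41 had Ohler 6, and mRpS10 and mRpS23 had none of the 9 elements searched.

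The elements of nuclear receptors were no more frequent. A RORE lay at 1 peak, that of mRpL52 (2.63%, beside 1.03% of all promoter peaks). The plain core AGGTCA was at 0 of the 38 peaks, where 4.51% of all promoter peaks held it, so the match of mRpL52 carries a variant of the core. The ERR element TCAAGGTCA and the NRF-1 type element of ewg, GCGCANGCG, each of a regulator with a known part in mitochondrial gene expression, were at 0 peaks (0.0382% and 0.267% of all). A match is a description of the sequence, and the lack of one says only that these letters were not in the window.

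The base composition was that of other promoter peaks, with a GC content of 33.1% ± 7.33 (SD over 38 peaks) within 100 bp of the summit, beside 34.0% ± 6.96 for all promoter peaks and 38.8% for the cytoplasmic ribosomal protein genes. Within 500 bp of the start sites, a wider window that includes flanking sequence, the DRE was found at 11 of the 38 bound genes (28.9%, beside 20.2% of all bound genes) and at 7 of the 35 unbound ones (20%, beside 9.35% of all unbound genes). The E-box was found at 10 of the 38 (26.3%, beside 14.5%) and at 6 of the 35 (17.1%, beside 12.4%). The core AGGTCA had the same counts (26.3%, beside 21.1%, and 17.1%, beside 24.1%). Ohler 7 was at 6 of the 38 (15.8%, beside 21.1%) and at 7 of the 35 (20%, beside 8.51%). Among the 38, Motif 1 was at 4 (10.5%, beside 9.27%) and Ohler 6 at 2 (5.26%, beside 4.5%). A RORE was at 1 (2.63%, beside 2.22%), the ewg element at 2 (5.26%, beside 3.51%) and the ERR element at 0 (beside 0.87%).

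Other genes of mitochondrial gene expression were bound about as often as any gene. The genes tko and bonsai, which encode proteins of the small subunit of the mitochondrial ribosome under other names, were both unbound. Of 9 translation factor genes 2 were bound, those of the elongation factor mEFTu1 and the initiation factor mIF2. Of 7 genes of mitochondrial transcription 2 were bound, those of the RNA polymerase PolrMT and of mTerf5. Of 15 mitochondrial aminoacyl-tRNA synthetase genes 4 were bound, ArgRS-m, AspRS-m, CysRS-m and ProRS-m. Together 8 of 33 (24.2%) were bound, beside 23.9% of all protein-coding genes, with a median relative signal of 0.797 ± 0.106 (SD, n = 3).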

How the data were processed

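Hr3-GFP binding was measured by ChIP-seq in 3 biological replicates of 1 group, grouped by the labels' replicate numbers. Per the labels, sonicated fragments were 200 to 800 bp long. Per the deposited text files, the authors made relaxed peak lists for each replicate and for the pool of all 3, each with a control, and derived a reproducible list by the irreproducible discovery rate on dm6. Aligner, peak caller, versions and threshold were not given in the sources used here. The control was not analysed here. The deposited signal value is the authors' caller's strength of a peak, on a scale that differs between lists. Depth is unknown, since peak lists hold no read totals, and no counting intervals are given. The relaxed lists held 25578, 27006 and 23582 peaks in replicates 1, 2 and 3, the pooled list 23597 and the reproducible list 5357.

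Computed from these lists were promoter assignment (a summit counted for every gene with a start site within 500 bp, all annotated transcripts), relative signal (the replicate's relaxed peak covering the summit, divided by the replicate medians of 40.4, 81.2 and 68.6), distances and element matches, with Python 3.11.15, NumPy 2.4.6, matplotlib 3.10.9, the Ensembl release 115 annotation (BDGP6.54) and the RefSeq genome of dm6. Coordinates are 1-based. Of a gene's summits the strongest was used. Where a gene had no reproducible summit, its relative signal was that of the replicate's relaxed peak with a summit at the promoter. Assignment and element search were tested on simulated data. With 1 group no test between samples was possible, and all shares are descriptions beside the share over all genes. Whether the replicates came from separate collections cannot be told from the labels' replicate numbers, the only source used for this here.

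Members and lists were chosen with earlier results of these data known. Every member was named, with replicate values for the 12 strongest and 4 weakest bound ones. Divergent neighbours were named for the bound members, except 1, and for some of the unbound ones. Sequences were planned for the 4 strongest bound members outside 2R with and without a DRE or Motif 1. Only 3 had one, and mRpL23, whose summit lies in its 5′ UTR, was passed over for the next strongest. The pair of 1 bound gene and its divergent neighbour is counted but not reported here by name. The factor gene mEFG2 had no matching symbol in the annotation. Alternatives tried were other promoter widths, lists, start sites, scalings, gaps and windows, and leaving out each replicate.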

Additional observations from a re-analysis of the deposited data

How the results depend on the processing

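The count of 38 bound genes moved most with the list and the rule for shared promoters: it was 22 above the median signal of the list, 58 with the pooled relaxed list and 15 with the nearest start site alone. It was 28 with promoters of 200 bp and 38 with 1000 bp. Without each replicate in turn it was 29 to 33, and the share of all protein-coding genes was 19.5% to 20.6%. That share was 16.9% with 200 bp, 27.0% with 1000 bp, 14.6% above the median signal, 47.5% in the pooled relaxed list, 18.8% in the strongest peaks of all 3 replicates, 17.4% by nearest start site and 21.2% with canonical transcripts alone. The share of bound mitochondrial ribosomal protein genes was 1.67 to 2.46 times that of all genes under these settings, except by nearest start site, where it was 1.18 times. Scaled by the median of all relaxed peaks, the median relative signal was 3.96, a change of unit, beside 4.00 for all bound genes. As a percentile rank among the reproducible peaks it was 59.0, beside 59.6. Without each replicate it was 1.06 to 1.24. The median distance was -98.5 bp from the nearest start of any gene and -142 bp with canonical transcripts. A divergent neighbour within 250 bp was present for 25 genes, and within 1000 bp for 58. A DRE was at 0% of the peaks within 50 bp and 13.2% within 200 bp (3.40% and 13.9% of all promoter peaks), and at 4.55% above the median signal. No paired analysis was possible because the series has 1 group.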
